A study of Homo sapiens with 4 samples.

Results

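ITGB3, the gene for the integrin β3 chain, was examined with 9 other integrin subunit genes in HeyC2 and SKOV3, both established human ovarian cancer cell lines, with and without a TET1 expression plasmid. The 10 genes were taken by symbol from the 26506 symbols measured in both lines. They are 5 alpha chains (ITGAV, ITGA2, ITGA3, ITGA5 and ITGA6) and 5 beta chains (ITGB3, ITGB1, ITGB4, ITGB5 and ITGB6). All 10 symbols were found in both tables. ITGB3 was chosen on its own values, namely its higher level in the TET1 library of each line, so its change is given as a description and no test of it is made.

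Integrins are cell surface receptors made of an alpha and a beta chain, and the pair decides which matrix protein is bound. They link the matrix outside the cell to actin through talin, kindlin and other adaptors, and they signal through kinases such as FAK and Src. In carcinoma cells of the ovary, integrins take part in the attachment of cells to the mesothelial lining of the peritoneum and to its matrix of collagen, fibronectin, vitronectin and laminin. The β3 chain pairs with αv, to form the vitronectin receptor, and with αIIb on platelets. TET1 is an enzyme that oxidises methylated cytosine in DNA, mostly at CG dinucleotides.

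Each line gave a control library, from cells that received the empty plasmid and are labelled wild-type, and a TET1 library, from cells that received pCMV6/TET1 and are labelled as overexpressing it. All cells of both groups were transfected with 3 µg of plasmid by lipofectamine and kept in 400 µg/ml Geneticin, and pCMV6 vectors express the insert from a CMV promoter. Whether the selected cells were a pool or a single clone is not given in the sources used here. There was 1 library per condition and line, so no value has a replicate error, and no test or p-value is given. A difference below compares 2 libraries, and in bulk RNA fewer cells with a transcript cannot be told apart from less transcript per cell.

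Expression was given as FPKM, fragments per kilobase of transcript scaled to the mapped total of the library, which corrects for transcript length. In the deposited tables GAPDH stood at 5417.35 FPKM in both HeyC2 columns and at 2248.44 in both SKOV3 columns. The TET1 columns carried a constant of 3.23 in HeyC2 and 1.35 in SKOV3, and dividing it out returned 100% of the values under 40 FPKM to the 0.01 steps of the control columns. Levels below are therefore given before this scaling. A change is log2 of TET1 over control, each plus 1 FPKM, minus the median of the same quantity over all genes with a mean of at least 1 FPKM in the line. That median was 0.06 in HeyC2 and 0.19 in SKOV3. A gene is called higher or lower when its change relative to the median passes 1.5-fold, 0.58 on the log2 scale.

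The steps of the low values put the depth at about 7340000 and 6760000 fragments for HeyC2, control then TET1, and at about 7160000 and 6660000 for SKOV3. Between 15162 and 16941 symbols were above 0. TET1 itself went from 0.20 FPKM in the HeyC2 control to 0.52 in the HeyC2 TET1 library, and from 0.43 to 1.80 in SKOV3. Both HeyC2 values were under 1 FPKM, so TET1 did not pass the filter in that line and was not called. Of the 10 epithelial and ovarian markers looked for, 4 stayed under 1 FPKM in both HeyC2 libraries, with CDH1, WT1 and MUC16 at 0 and EPCAM at 0.38 or less, and 2, WT1 and MUC16, stayed under 1 in both SKOV3 libraries. KRT8 (386 to 775 FPKM), KRT18 (193 to 378.8) and PAX8 (74.6 to 194.7) were present in all 4 libraries. KRT7, a simple epithelial keratin, stood at 289.7 and 1125 FPKM in HeyC2, control then TET1, and at 1537.2 and 22.0 in SKOV3. KRT19, another, stood at 0.62 and 1.59 in HeyC2 and at 255 and 0.46 in SKOV3. MSLN, the gene of mesothelin, stood at 46.6 and 77.5 in HeyC2 and at 10.3 and 0.082 in SKOV3. These differences lie between the same libraries as the integrin comparisons, and their part in the integrin values was not tested.

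The 7 integrin genes with an entry in the RefSeq promoter table (GRCh38.p14) differed widely in how many CG dinucleotides, the sites TET1 acts on, lie in the 250 bases before the transcript start. These ran from 0 at ITGB6 to 32 at ITGB1, through 12 at ITGA5, 18 at ITGAV, 23 at ITGB5, 26 at ITGA2 and 30 at ITGA6, against a median of 11 over 35116 windows. Of all windows, 93.9% held at least 1 CG. ITGB3, ITGA3 and ITGB4 have no promoter entry, so no count is given for ITGB3. ITGAV, ITGB1, ITGA6 and ITGB5 have entries at more than 1 start, of which 1 was counted. Over the full 300 bases of an entry, ITGAV held 23 CG at the start used and 1 at another. The same pairs were 39 and 4 for ITGB1 and 38 and 11 for ITGA6, and ITGB5 held 32 against 11 and 27. The stretches of 3 genes are shown, each 5′ to 3′ on the strand of the gene with CG in capitals: ITGB6 for its higher level in the SKOV3 TET1 library, ITGA6 as the member called lower in both lines, and ITGB1 as the common beta chain that lay within the limits in both lines. They lie at chr2:160200273-160200522 (minus strand), chr2:172427336-172427585 (plus strand) and chr10:32958231-32958480 (minus strand).
ITGB6: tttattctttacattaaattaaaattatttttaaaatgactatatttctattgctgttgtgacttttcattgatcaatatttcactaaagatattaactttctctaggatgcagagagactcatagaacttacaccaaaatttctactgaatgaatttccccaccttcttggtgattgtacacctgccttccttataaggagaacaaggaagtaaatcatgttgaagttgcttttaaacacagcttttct
ITGA6: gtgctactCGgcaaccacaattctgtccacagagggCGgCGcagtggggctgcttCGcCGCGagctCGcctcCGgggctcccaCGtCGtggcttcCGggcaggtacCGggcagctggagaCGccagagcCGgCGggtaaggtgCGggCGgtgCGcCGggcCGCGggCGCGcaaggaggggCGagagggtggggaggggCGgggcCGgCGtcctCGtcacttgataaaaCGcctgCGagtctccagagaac
ITGB1: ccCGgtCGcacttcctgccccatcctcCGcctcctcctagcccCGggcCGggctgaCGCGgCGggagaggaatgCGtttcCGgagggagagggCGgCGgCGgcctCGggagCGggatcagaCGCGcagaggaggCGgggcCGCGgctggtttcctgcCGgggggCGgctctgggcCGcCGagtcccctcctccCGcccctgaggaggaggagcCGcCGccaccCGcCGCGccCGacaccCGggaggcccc

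The ITGB6 stretch held no CG, as did 6.06% of all windows. The ITGA6 stretch held as many CG as or more than 89.1% of the windows, and the ITGB1 stretch as many as or more than 91.9%. DNA methylation was not measured in these libraries.

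ITGB3 was the 1 member past 1.5-fold higher in both lines. In HeyC2 it stood at 99.0 FPKM in the control and at 310.9 in the TET1 library. In SKOV3 it stood at 6.71 and 48.5. Relative to the all-gene median this was a log2 change of 1.58 in HeyC2, or 3.00-fold, and of 2.49 in SKOV3, or 5.62-fold. These changes were number 158 among 11894 genes in HeyC2 and number 104 among 13013 genes in SKOV3, counted from the highest. As deposited, with the GAPDH constant left in, the TET1 values read 1005.57 and 65.24 FPKM.

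The 2 lines began from different ITGB3 levels. The HeyC2 control level was above that of 94.0% of the genes that passed in the line, and the SKOV3 control level was above 38.5%. In the TET1 libraries these shares were 98.2% and 85.9%. The ITGB3 level in the SKOV3 TET1 library remained under that of the HeyC2 control, although the tables of the lines were made separately. The values rest on about 4208 and 12118 fragments in HeyC2 and on about 277 and 1862 in SKOV3.

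**Figure D1:**
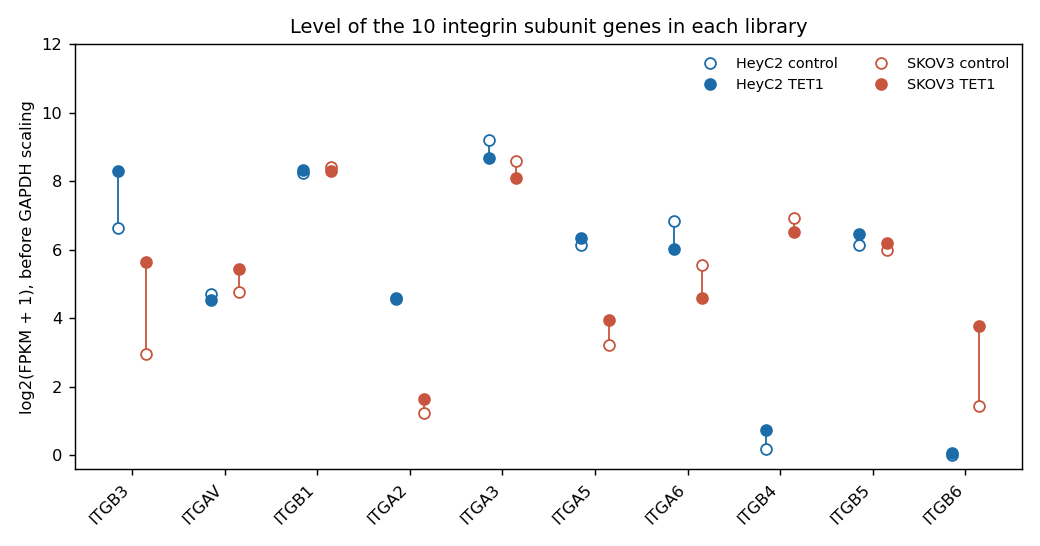
Level of the 10 integrin subunit genes as log2(FPKM + 1) before the GAPDH scaling, with HeyC2 in blue, SKOV3 in red, open circles for control and filled circles for TET1 libraries, 1 library each. The filled ITGB3 circle lies above the open one in both lines, at 310.9 against 99.0 FPKM in HeyC2 and 48.5 against 6.71 in SKOV3, and the filled ITGA6 circle lies below the open one in both.

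Over all genes that passed in HeyC2, 12.5% were called higher and 9.17% lower. The shares over SKOV3 genes were 20.7% higher and 18.2% lower. Of the 8 members that passed in HeyC2, 1 was higher, 1 was lower and 6 lay within the limits, with a median of 0.00. All 10 passed in SKOV3, where 2 were higher, 3 were lower and 5 lay within, with a median of 0.11, against 0 for all genes by construction. Among the 11134 genes that passed in both lines, 3.56% were higher in both and 2.54% were lower in both. Of the 8 members among them, 1 was higher in both, ITGB3, which was chosen for it, and 1 was lower in both, ITGA6. Counts of 1 to 3 genes among 8 or 10 do not set the family apart from this background.

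**Figure D2:**
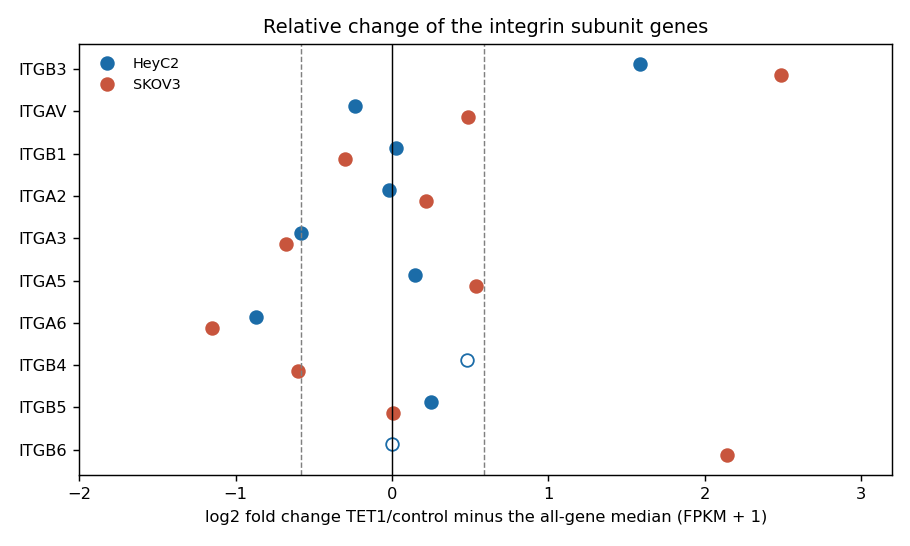
Log2 change of each member relative to the all-gene median, TET1 against control, in HeyC2 and SKOV3, with dashed lines at 1.5-fold and hollow points for genes under the mean of 1 FPKM. ITGB3 lies at 1.58 and 2.49, ITGB6 at 2.14 in SKOV3, and ITGA6 at -0.87 and -1.15.

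**Figure D3:**
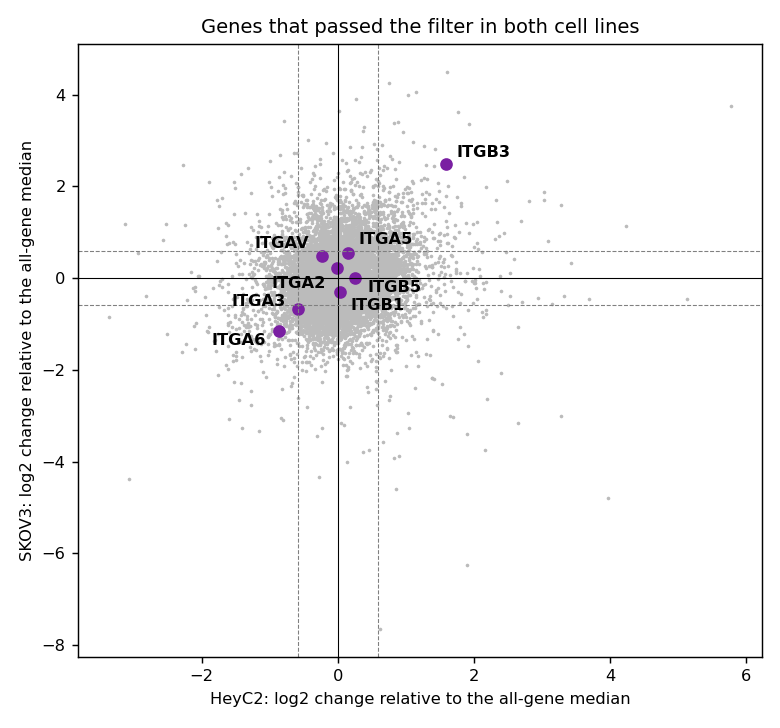
Relative log2 change in HeyC2 (x axis) against SKOV3 (y axis) for the 11134 genes that passed in both lines, in grey, with the 8 members in purple and dashed lines at 1.5-fold. ITGB3 lies in the upper right, ITGA6 in the lower left, ITGA3 beside the limit in HeyC2, and the other 5 members inside the limits in both lines.

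ITGAV encodes αv, the alpha chain that the β3 protein needs on cells other than platelets. Its level was 25.03 FPKM in the HeyC2 control and 22.0 in the TET1 library, a relative log2 change of -0.24. In SKOV3 it was 26.0 and 42.3, a change of 0.49, or 1.40-fold, which stayed under the limit. Scaled to TPM, with the all-gene median of 0.28 not subtracted, it read 0.74. The ITGAV level of the controls was thus close between lines in which ITGB3 stood at 99.0 and 6.71 FPKM. The level of ITGB3 per level of ITGAV went from 3.96 to 14.2 in HeyC2 and from 0.258 to 1.15 in SKOV3. ITGA2B, which encodes αIIb, the platelet partner, was listed at 0 in both HeyC2 libraries and stood at 0.45 and 1.38 FPKM in SKOV3, under the filter.

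The αv chain also pairs with β1, β5, β6 and β8. Of the summed FPKM of these 5 beta chain genes, ITGB3 made 20.9% in the HeyC2 control and 43.1% in the HeyC2 TET1 library. In SKOV3 it made 1.60% and 10.7%. The sum was 474 FPKM in the HeyC2 control against 722 in the TET1 library, and 419.6 against 452.5 in SKOV3. ITGB1, whose product also pairs with many other alpha chains, made 64.0% and 44.6% of the sum in HeyC2 and 80.8% and 69.5% in SKOV3. Without ITGB1, the ITGB3 share was 58.0% and 77.7% in HeyC2 and 8.33% and 35.1% in SKOV3. These are shares of transcript and not of receptor at the cell surface.

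**Figure D4:**
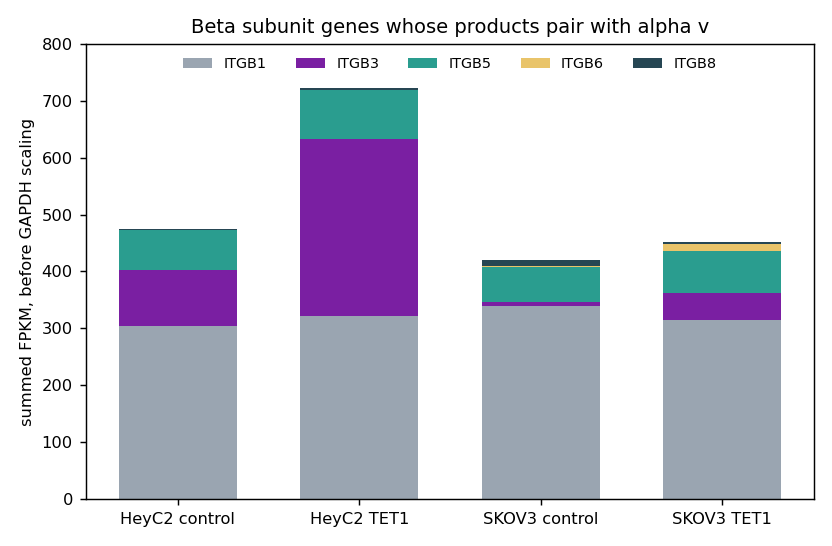
Summed FPKM before the GAPDH scaling of the 5 beta chain genes whose products pair with αv, stacked per library, 1 library per bar. The ITGB3 segment takes 20.9% and 43.1% of the HeyC2 bars and 1.60% and 10.7% of the SKOV3 bars, while ITGB1 is between 303.5 and 339 FPKM in all 4.

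ITGB5, whose product joins αv in another vitronectin receptor, was within the limits in both lines. It stood at 70.1 and 86.9 FPKM in HeyC2, a relative change of 0.25, and at 62.8 and 72.4 in SKOV3, a change of 0.01. ITGB1, the common beta chain of the collagen, laminin and fibronectin receptors, stood at 303.5 and 321.9 FPKM in HeyC2, a change of 0.03, and at 339 and 314 in SKOV3, a change of -0.30. It was 3.07 times the level of ITGB3 in the HeyC2 control and 1.04 times in the TET1 library. The same ratio in SKOV3 was 50.5 and 6.49.

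ITGB6, the beta chain of an epithelial receptor that binds fibronectin and frees latent TGF-β, was the other member called higher. In SKOV3 it stood at 1.74 FPKM in the control and at 12.8 in the TET1 library, on about 56 and 381 fragments. The relative change was 2.14, or 4.41-fold, number 184 in the line. In HeyC2 it was listed at 0 in the control and at 0.04 in the TET1 library, which is about 1 fragment, and it did not pass the filter. ITGB8, the remaining αv partner and not among the 10, stood at 9.28 and 4.38 FPKM in SKOV3, a change of -1.13, and at 1.5 and 2.38 in HeyC2, a change of 0.38. In the SKOV3 libraries ITGB3 and ITGB6 were thus higher with TET1, ITGB8 lower, and ITGB1 and ITGB5 within the limits.

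ITGA6 encodes α6, which pairs with β1 or with β4. It stood at 112.9 FPKM in the HeyC2 control and at 63.9 in the TET1 library, on about 4695 and 2438 fragments. In SKOV3 it stood at 46.2 and 23.3, on about 1866 and 875 fragments. The relative changes were -0.87 and -1.15, that is 0.55 and 0.45 of the control. In the deposited columns, without the median subtracted, the HeyC2 value reads 0.87, since the GAPDH constant is then part of it.

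ITGA3, whose product α3 pairs with β1 to bind laminin-332, was the alpha chain gene with the highest level of the 5 in all 4 libraries. It stood at 587 FPKM in the HeyC2 control and 408.5 in the TET1 library, and at 381 and 271 in SKOV3. The relative changes were -0.58 and -0.68. The first fell just short of a call and stayed within the limits, and the second was called lower. Under TPM scaling, with the all-gene median of 0.28 not subtracted, the second read -0.44. ITGA3 made 71.8% and 68.3% of the summed FPKM of the 5 alpha chain genes in HeyC2, and 82.3% and 76.7% in SKOV3.

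ITGB4 encodes β4, the partner of α6 in hemidesmosomes. It was abundant in SKOV3, at 119.5 FPKM in the control and 89.7 in the TET1 library, and near 0 in HeyC2, at 0.15 and 0.67 FPKM on about 6 and 26 fragments. Its SKOV3 change of -0.60 was just past the limit. ITGA3 in HeyC2 and ITGB4 in SKOV3 were the 2 values closer than 0.02 to the limit, so the count of members called lower moves with the setting. With TPM scaling ITGB4 in SKOV3 read -0.36, with the all-gene median of 0.28 not subtracted. In SKOV3 the level of ITGB4 per level of ITGA6 was 2.59 in the control and 3.85 in the TET1 library.

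ITGA2 and ITGA5, the alpha chains of a collagen receptor and of the main fibronectin receptor, stayed within the limits in both lines. ITGA2 stood at 22.7 and 23.4 FPKM in HeyC2, a change of -0.02, and at 1.36 and 2.14 in SKOV3, a change of 0.22 on about 75 and 109 fragments. ITGA5 stood at 69.8 and 80.6 FPKM in HeyC2, a change of 0.15, and at 8.34 and 14.5 in SKOV3, a change of 0.54, or 1.45-fold. The SKOV3 change read 0.81 under TPM scaling, with the all-gene median of 0.28 not subtracted. Both had the higher control level in HeyC2, as ITGB3 did.

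In the HeyC2 control ITGA3 came first, followed by ITGB1, ITGA6, ITGB3, ITGB5, ITGA5, ITGAV and ITGA2, with ITGB4 and ITGB6 near 0. In the HeyC2 TET1 library ITGB3 moved from place 4 to place 3, next to ITGB1, at 311 against 322 FPKM. In the SKOV3 control the order was ITGA3, ITGB1, ITGB4, ITGB5, ITGA6, ITGAV, ITGA5, ITGB3, ITGB6 and ITGA2. There ITGB3 moved from place 8 to place 5. With 1 library each, whether neighbours in these orders differ beyond replicate spread cannot be said.

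The tables held 26 integrin genes, and the remaining 16 gave few values above the filter. In HeyC2 6 passed, with 1 higher, 0 lower and a median of 0.12, beside 12.5% higher and 9.17% lower over all genes. The higher one was ITGA10, a collagen-binding alpha chain, at 0.67 and 2.74 FPKM, a change of 1.10. In SKOV3 6 passed, with 1 higher, 2 lower and a median of -0.20, beside 20.7% and 18.2%. ITGA7, a laminin-binding alpha chain, stood at 1.10 and 12.4 FPKM, a change of 2.49, as large as that of ITGB3 to 2 decimals.

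ITGB2, the beta chain of leukocyte integrins, stood at 9.27 FPKM in the SKOV3 control and at 0.22 in the TET1 library, a change of -3.26, and at 18.8 and 16.5 in HeyC2, a change of -0.23. Its antisense gene ITGB2-AS1, looked up after these values were seen, stood at 4.73 and 0.22 FPKM in SKOV3. In HeyC2 ITGB2-AS1 stood at 2.01 and 3.60 FPKM, a change of 0.55, within the limits. The sources used here do not give whether the library kept strand, so reads of the pair cannot be told apart. Of the others that passed, ITGA1 changed by -0.28 in HeyC2 and -0.55 in SKOV3, ITGAE by -0.13 and 0.33, ITGAX by 0.48 in HeyC2 and ITGA4 by 0.16 in SKOV3, all within the limits.

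ITGB3 lies on chromosome 17 at 45331193 to 45391109, plus strand, in GRCh37, the build of the deposited values. The nearest neighbour in the tables after its end is EFCAB13, 9547 bases on and on the same strand, a gene for an EF-hand protein. EFCAB13 stood at 2.34 FPKM in the HeyC2 control and 9.71 in the TET1 library, a relative change of 1.62, or 3.08-fold. In SKOV3 it stood at 0.50 and 5.85, a change of 2.00. It was thus higher with ITGB3 in both lines, as were 3.56% of the genes that passed in both.

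The other neighbours gave no such pair of values. MRPL45P2 and NPEPPS, further on, were within the limits in both lines, with NPEPPS at 0.03 and 0.30. Before ITGB3, MYL4 was at 0 in 3 libraries and at 0.44 FPKM in the SKOV3 TET1 library, and CDC27, a subunit of the anaphase-promoting complex, changed by 0.15 and -0.22. RPRML was at 0 in HeyC2 and at 0.92 and 3.42 FPKM in SKOV3, a change of 1.01. The annotation also holds a protein-coding gene without a symbol at 45331263 to 45421658, plus strand, which overlaps both ITGB3 and EFCAB13 and has no row in the tables under that identifier. How reads in the shared stretches were assigned is not given in the sources used here.

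**Figure D5:**
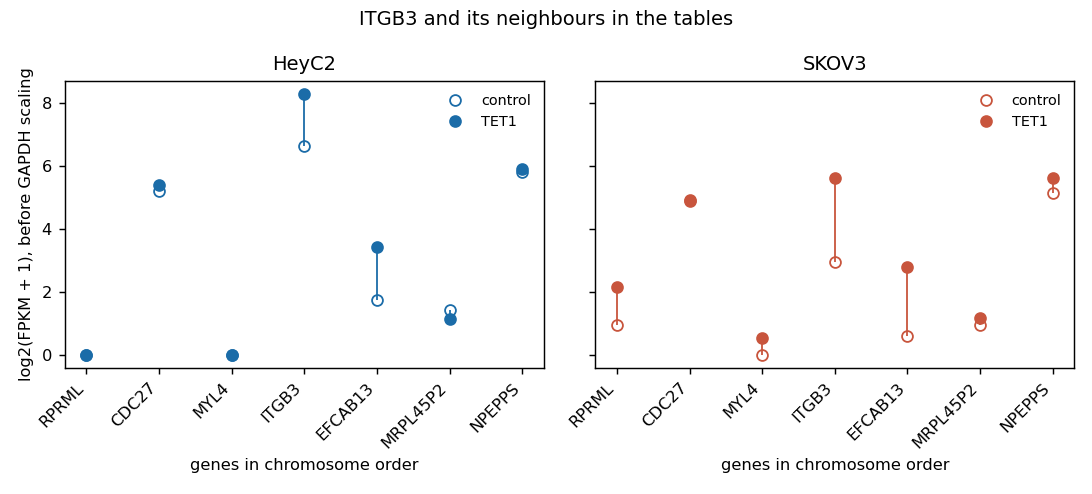
Level of ITGB3 and the 3 neighbours on each side that are in the tables, in chromosome order, as log2(FPKM + 1) before the GAPDH scaling, 1 library per point. ITGB3 and EFCAB13 have filled (TET1) points well above the open (control) points in both lines, at 9.71 against 2.34 FPKM for EFCAB13 in HeyC2 and 5.85 against 0.50 in SKOV3, and CDC27 and NPEPPS show little difference.

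The profile most like that of ITGB3 over the 4 libraries was sought among 11133 genes, by the Euclidean distance between log2(FPKM + 1) values with each gene's mean taken away. The nearest were CYS1 at 0.64, LGR5 at 0.68, NOL4L at 0.85, TMEM44 at 0.88 and NT5DC2 at 1.03. LGR5, a receptor for R-spondins, stood at 10.9 and 25.1 FPKM in HeyC2 and at 0.03 and 2.75 in SKOV3. CYS1, the gene of a cilium protein, stood at 20.5 and 52.8 in HeyC2 and at 1.44 and 11.5 in SKOV3. Relative changes of these 5 genes ran from 0.61 to 1.27 in HeyC2 and from 1.34 to 2.17 in SKOV3. Among the members, ITGA5 came nearest at place 85 and ITGA2 at place 135, while ITGAV, which encodes the partner chain, came at place 5968. The points share 4 libraries and the gap between the lines.

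Of 29 genes for matrix and other proteins bound by αv integrins, many through an RGD motif, 15 passed in HeyC2, with 0 higher, 6 lower and a median of -0.12, beside 12.5% higher and 9.17% lower over all genes. In SKOV3 17 passed, with 6 higher, 6 lower and a median of 0.08, beside 20.7% and 18.2%. The lower genes in HeyC2 held FN1, the gene of fibronectin, at 5557 and 2619 FPKM, a change of -1.14, and TNC, the gene of tenascin C, at 144 and 50.6, a change of -1.55. In SKOV3 FN1 stood at 32.6 and 45.4, a change of 0.28, and TNC at 1.12 and 0.61, under the filter. VTN, the gene of vitronectin, was at 0 in 3 libraries and at 0.10 FPKM in the SKOV3 TET1 library. TGFBI, a secreted matrix protein bound by integrins, stood at 24.9 and 211.9 FPKM in SKOV3, a change of 2.85, and changed by 0.17 in HeyC2. TGFB1, whose latent form is an αvβ6 ligand, stood at 23.3 and 87.6 in SKOV3, a change of 1.67, and changed by 0.11 in HeyC2. L1CAM, an adhesion molecule, was lower in both lines, at 61.2 and 23.8 FPKM in HeyC2 and at 105 and 46.1 in SKOV3, with changes of -1.39 and -1.36. FBN1, the microfibril protein fibrillin, changed by -0.87 and -1.44.

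Of 10 collagen genes, 7 passed in HeyC2 with 1 higher, 3 lower and a median of -0.41, beside 12.5% higher and 9.17% lower over all genes. In SKOV3 8 passed with 4 higher, 1 lower and a median of 0.87, beside 20.7% and 18.2%. COL1A1, a chain of the main fibrillar collagen, was higher in both, at 0.57 and 1.76 FPKM in HeyC2 and at 0.32 and 27.7 in SKOV3, with changes of 0.76 and 4.25. Both control values were under 1 FPKM, so COL1A1 passed the filter only through the TET1 libraries, and the HeyC2 values lie near the floor. COL6A2 changed by -0.60 in HeyC2 and 1.59 in SKOV3, COL5A2 by -1.49 and -0.41, and COL4A1, a basement membrane collagen, by 0.12 and -0.95.

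Of 11 laminin chain genes, 7 passed in HeyC2 with 1 higher, 0 lower and a median of 0.02, beside 12.5% higher and 9.17% lower over all genes. In SKOV3 8 passed with 3 higher, 4 lower and a median of -0.38, beside 20.7% and 18.2%. LAMB3, a chain of laminin-332, stood at 689 and 727 FPKM in HeyC2, a change of 0.02, and at 83.9 and 56.2 in SKOV3, a change of -0.76. LAMA5 and LAMB2 changed by 1.30 and 1.34 in SKOV3 and by 0.38 and 0.29 in HeyC2.

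Of 34 activators and adhesion adaptors, which act on integrins inside the cell, 30 passed in HeyC2 with 6 higher, 2 lower and a median of -0.12, beside 12.5% higher and 9.17% lower over all genes. In SKOV3 29 passed with 2 higher, 10 lower and a median of -0.15, beside 20.7% and 18.2%. LIMS2, the adaptor PINCH2, was higher in both lines, at 2.66 and 6.46 FPKM in HeyC2 and at 1.80 and 6.06 in SKOV3, with changes of 0.97 and 1.14. SRC, a kinase that acts downstream of β3, stood at 39.95 and 69.0 FPKM in HeyC2, a change of 0.72, and changed by 0.11 in SKOV3. FLNA, the actin crosslinker filamin A, stood at 659.6 and 316 FPKM in SKOV3, a change of -1.25, and ACTN4, an α-actinin, at 541 and 273, a change of -1.18. In HeyC2 they changed by -0.37 and -0.29.

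Of 12 genes for inactivators and trafficking of integrins, 10 passed in HeyC2 with 0 higher, 1 lower and a median of -0.16, and 9 passed in SKOV3, all within the limits, with a median of 0.04. The all-gene shares were 12.5% higher and 9.17% lower in HeyC2, and 20.7% and 18.2% in SKOV3. HAX1, which takes part in the uptake of αvβ6, was the lower one, with a change of -0.65 in HeyC2 and 0.11 in SKOV3. SHARPIN, an inhibitor of β1 integrins, changed by 0.51 and 0.04, and SNX17, which returns β chains to the surface, by 0.06 and 0.35. RAB21, a GTPase of integrin traffic, changed by -0.51 and -0.19.

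Of 12 tetraspanin, hemidesmosome and other membrane partner genes, all passed in both lines, with 0 higher and 3 lower in HeyC2, 3 higher and 5 lower in SKOV3, and medians of -0.13 and -0.25. These counts stand beside all-gene shares of 12.5% higher and 9.17% lower in HeyC2, and of 20.7% and 18.2% in SKOV3. CD9, a tetraspanin, stood at 176 and 106 FPKM in HeyC2, a change of -0.78, and at 28.1 and 118.4 in SKOV3, a change of 1.85. CD47, a partner of αvβ3, changed by 0.36 and 0.66. SLC3A2, the CD98 heavy chain that binds β chains, was lower in both lines, with changes of -1.39 and -0.78. COL17A1, a hemidesmosome collagen, changed by 0.06 and -1.58.

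Cell types known for ITGB3 were looked for through marker lists. Their counts stand beside all-gene shares of 12.5% higher and 9.17% lower in HeyC2, and of 20.7% and 18.2% in SKOV3. The platelet list of 9 genes summed to 0.81 and 1.98 FPKM in HeyC2 and to 1.13 and 4.08 in SKOV3, and PF4, PPBP and GP9 were at 0 in all 4 libraries. Only 1 platelet gene passed in HeyC2 and it was called higher, with a change of 0.66, and none passed in SKOV3. The osteoclast list of 7 genes summed to 2.26 and 6.09 in HeyC2 and to 2.16 and 4.64 in SKOV3, with OCSTAMP and DCSTAMP at 0. In each line 1 of the 2 osteoclast genes that passed was called higher. It was CTSK in both lines, with changes of 1.02 in HeyC2 and 0.80 in SKOV3. CTSK was thus higher in both lines, as were 3.56% of the genes that passed in both. The other, TNFRSF11A, changed by 0.49 and 0.03, within the limits. The endothelial list of 8 genes summed to 90.2 and 203.9 FPKM in HeyC2, with 1 of 2 higher, and to 1.68 and 1.72 in SKOV3, where none passed. In HeyC2 that sum came from TIE1, at 70.5 and 108 FPKM, and CDH5, at 18.9 and 94.6, while PECAM1 stayed at or under 0.09 in all libraries.

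The leukocyte list of 9 genes, which holds ITGB2, summed to 76.9 and 110.6 FPKM in HeyC2, with 2 of 3 higher, and to 24.99 and 23.2 in SKOV3, with 1 of 3 lower, and CD3E was at 0. The fibroblast and smooth muscle list of 9 genes, which holds COL1A1, summed to 41.9 and 71.0 in HeyC2, with 3 of 4 higher, and to 65.9 and 47.0 in SKOV3, with 3 of 5 higher and 1 lower. The epithelial list of 10 genes had 3 of 6 higher in HeyC2, and 2 higher and 3 lower of 8 in SKOV3. Beside these counts of few genes stand the shares over all genes, 12.5% higher and 9.17% lower in HeyC2 and 20.7% and 18.2% in SKOV3. The part of the marker differences in the ITGB3 values was not tested.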

How the data were processed

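RNA from HeyC2 and SKOV3 cells was sequenced by the authors with TruSeq RNA libraries as 2 × 150 bp pairs on an Illumina HiSeq, and, per the labels, aligned to hg19 with Bowtie2 2.2.6 and quantified with RSEM 1.2.17. The deposited values are FPKM per gene symbol, and, as the values show, the TET1 columns carry a constant that equalises GAPDH within each line, a step not given in the sources used here. The constant was found from the steps between values of the TET1 column, taken as multiples of 0.01 FPKM times the constant. It was divided out, 1 FPKM was added, and log2 changes were taken relative to the median of genes with a mean of at least 1 FPKM (11894 in HeyC2, 13013 in SKOV3). Fragment numbers were estimated from the smallest values, taken as whole fragments, and the annotated transcript lengths, and are approximate. With 1 library per condition, the call is a fold of 1.5 and no test was run. The steps were tested on simulated data over 26506 genes, with 200 of 200 planted changes found in each line. The planted changes were well past the limit, in well-expressed genes and with counting noise only. Low genes, changes near the limit, spread between cultures and false calls were thus not tested. Python 3.11.15, numpy 2.4.6, pandas 2.3.3 and matplotlib 3.10.9 were used.

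The members and the lists were chosen with earlier results of these data known. The text names all members, the other integrin subunits above the filter, for each list of interacting genes the 2 highest and 2 lowest by mean change over both lines, the 5 profiles nearest to ITGB3 and 3 neighbours on each side. A gene that this rule names is not reported here. VTN, FN1, TNC, ITGB2-AS1, KRT7, KRT19 and single marker genes were named after their values were seen. The alternatives were other pseudocounts, filters, scalings and fold limits.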

Additional observations from a re-analysis of the deposited data

How the results depend on the processing

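ITGB3 stayed past the limit in both lines under every pseudocount, filter and scaling tried, at 1.56 to 3.33 in HeyC2 and 2.49 to 3.10 in SKOV3. ITGA6 in both lines and ITGB6 in SKOV3 kept their direction and stayed past the limit under all of these that subtract the median. They also did so with TPM and upper quartile scaling, which here do not subtract it. The other calls moved near the limit. ITGA3 in HeyC2 passed it with pseudocounts of 0.1 and 0.01, TPM and upper quartile scaling (-0.59 to -0.61). In SKOV3, ITGB4 fell short of it with no filter, a mean of 5 FPKM, deposited values, TPM and upper quartile scaling (-0.36 to -0.58), ITGA3 under TPM (-0.44), and ITGAV (0.74 and 0.59) and ITGA5 (0.81 and 0.64) passed it under TPM and upper quartile scaling, as ITGA5 did at a mean of 5 FPKM (0.63). As deposited without the median taken away, where 95.8% of genes are higher and 0.50% lower in HeyC2 and 50.2% and 4.39% in SKOV3, 9 members were higher and 0 lower in HeyC2, 6 were higher and 0 lower in SKOV3, ITGB3 read 3.33 in HeyC2, and ITGA6 in HeyC2 (0.87) and ITGB4 in SKOV3 (0.013) turned positive, because the GAPDH constant then enters every change. The count of lower members in HeyC2 was 2 with pseudocounts of 0.1 and 0.01, TPM, upper quartile scaling and a 1.2-fold limit, and 0 at 2-fold. In the same order, the shares of all genes lower were 11.5%, 11.8%, 10.8%, 9.65%, 26.3% and 2.82%. In SKOV3 4 members were higher with TPM, upper quartile scaling and the 1.2-fold limit, and 1 was lower with TPM and at 2-fold. TPM in SKOV3 had 34.6% of genes higher and 11.1% lower, against 20.7% and 18.2%. Upper quartile scaling had 24.8% of genes higher there and the 1.2-fold limit 34.8%, and 6.49% were lower at 2-fold. With TPM and upper quartile scaling the all-gene median was not subtracted, so it is part of each change there. It was 0.28 with TPM and 0.10 with upper quartile scaling in SKOV3, and 0.01 and -0.02 in HeyC2. The counts under these scalings with that median subtracted were not computed. With 1 library per condition no library could be left out, and the depth leave ITGB4 and ITGB6 in HeyC2 at 26 fragments or fewer.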
